A study of Mus musculus with 6 samples.

Results

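Collagens are the secreted and membrane-bound proteins whose chains wind into a triple helix, and the genes described here encode the chains. A member was any gene of the deposited table that is listed as protein coding and whose symbol reads Col, a type number, a and a chain number. This rule, which uses no measured value, found 44 genes among the 43346 listed. They were divided by structure into 11 fibrillar chains, 6 basement membrane chains, 9 fibril-associated chains (FACIT) and 18 others.

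RNA was sequenced from gastrocnemius, a calf muscle, of 6-month-old male mice of 1 genotype, Vdrfl/fl.actin iCre. In these mice loxP sites surround exon 3 of Vdr, the vitamin D receptor gene, and a Cre recombinase that tamoxifen switches on is driven by the skeletal actin promoter ACTA1, which is active in muscle fibres. The 3 mice of the knockout group received tamoxifen, 100 mg/kg in 75 microliters of corn oil with 10% ethanol, on each of 5 days, and the 3 mice of the vehicle group received the ethanol and corn oil alone. Animals of both groups carried the floxed alleles and the Cre transgene, ate a diet with 0.81% calcium and vitamin D3 at 3.4 IU/g, and were tested for glucose handling and strength 10 days after the last injection, before the muscle was taken. Mice given tamoxifen without Cre were not analysed here, so receptor loss, active Cre and tamoxifen cannot be told apart.

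Each collagen chain carries a run of repeats with glycine at regular steps, and 3 chains assemble in the endoplasmic reticulum after enzymes hydroxylate their prolines and lysines. Fibrillar collagens are trimmed by proteases outside the cell and pack into the fibrils that give tendon and the connective tissue of muscle their strength. Type IV collagen forms the mesh of the basement membrane around each muscle fibre and each capillary, FACIT chains decorate the surface of fibrils, and type VI collagen forms beaded filaments between the basement membrane and the matrix. In muscle most fibrillar collagen is made by fibroblasts and fibro-adipogenic progenitors, which are not the cells in which the actin promoter drives Cre. A whole-muscle library cannot tell fewer cells of a type from less RNA per cell.

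The 6 libraries held between 30486874 and 39909535 counted reads, and 15583 genes passed the filter on low counts. Acta1, the skeletal actin that defines the labelled tissue, was at a mean of 15212 FPKM (fragments scaled for gene length and library size). Vdr itself had 52, 27 and 40 reads in the knockout and 46, 48 and 61 in the vehicle libraries. Its log2 fold change was -0.37 (SE 0.37; edgeR adjusted p = 0.848). Since the counts cover the whole gene and not exon 3 alone, they are a weak check of the labels. Knockout replicate 2 stood apart from the other libraries. It had the fewest reads, 15.1% of them in its 10 most abundant genes against 20.8% to 25.2% elsewhere, and the highest summed level of slow-fibre markers.

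Collagen chains made up a small part of this muscle's RNA and a few of them held most of it. All 44 together took 0.0624%, 0.175% and 0.164% of the reads in the knockout libraries, given here and below in the order of replicates 1, 2 and 3. The shares of the vehicle libraries were 0.0939%, 0.0864% and 0.0505%. By listed gene length, on the deposited FPKM scale averaged over the 6 libraries, the highest were the basement membrane chain Col4a1 at 22.0, the fibrillar chain Col3a1 at 19.9, the type VI chain Col6a1 at 15.2, Col4a2 at 13.9, Col1a2 at 11.7 and Col1a1 at 9.68. These 6 genes made up 68.6% of the summed collagen FPKM. The order depends on the length used. Col1a2 is listed with 12136 bases where its principal transcript in GENCODE M21 has 5348, Col6a2 with 8326 against 3949 and Col3a1 with 9816 against 5564, while Col4a1 is listed with 6818 against 6615. With the principal transcript's length in place of the listed one, an alternative added after the data were seen, Col3a1 came to 35.2, Col1a2 to 26.5 and Col4a1 to 22.7, so that the 2 fibrillar chains stood above Col4a1.

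At the other end, 7 members did not pass the filter on low counts. They were Col2a1, the main chain of cartilage fibrils, Col9a2 and Col9a3, which sit on those fibrils, Col10a1 of the growth plate, the minor type VI chains Col6a4 and Col6a5, and the membrane-spanning Col25a1. Col10a1 had 2 reads in knockout replicate 3, 1 in vehicle replicate 2 and 0 in the other libraries. Col6a4 had 2 and 3 reads in those libraries and 0 in the rest. A count of 3, the floor used here, corresponds to 0.0782 to 0.0928 on the TMM-scaled CPM scale. The remaining 37 members were tested.

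The comparison of knockout with vehicle asks whether collagen transcripts differ once Cre has been switched on in adult fibres. No collagen chain gene passed the threshold. The chains of type I and type III collagen, which build most fibrils of muscle connective tissue, had group means that differed by less than 1 SD of the knockout group. Col1a1 averaged 84.6 ± 52.4 CPM (counts scaled to a common library size, here with TMM factors) in knockout and 37.0 ± 11.4 in vehicle libraries, Col1a2 averaged 180.3 ± 95.3 and 92.4 ± 24.6, and Col3a1 averaged 256 ± 145 and 119 ± 44.8 (SD, n = 3 each).

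In edgeR, 0 of the 37 chains reached an adjusted p of less than 0.05, beside 0% of the 15583 genes tested. The smallest adjusted p of a member was 0.664. At an unadjusted p below 0.05 there was 1 member, Col11a1, or 2.7% of those tested, and it was higher in knockout. Of all genes 7.44% reached that level, 4.02% higher and 3.42% lower. The groups did not overlap in 0 of the 37, against 12.3% of all genes (5.83% higher and 6.48% lower in knockout). DESeq2, limma-voom and limma on the deposited FPKM also called 0 members, and over all genes DESeq2 called 109 and both limma fits 0. Estimates were higher in knockout for 27 of the 37 and lower for 10, beside 52.9% higher and 47.1% lower over all genes. The median log2 fold change was 0.35 over the members and 0.02 over all genes. The p-values rest on 3 libraries a group, and the 95% interval of Col3a1 ran from -0.02 to 2.22 on the log2 scale.

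**Figure D1:**
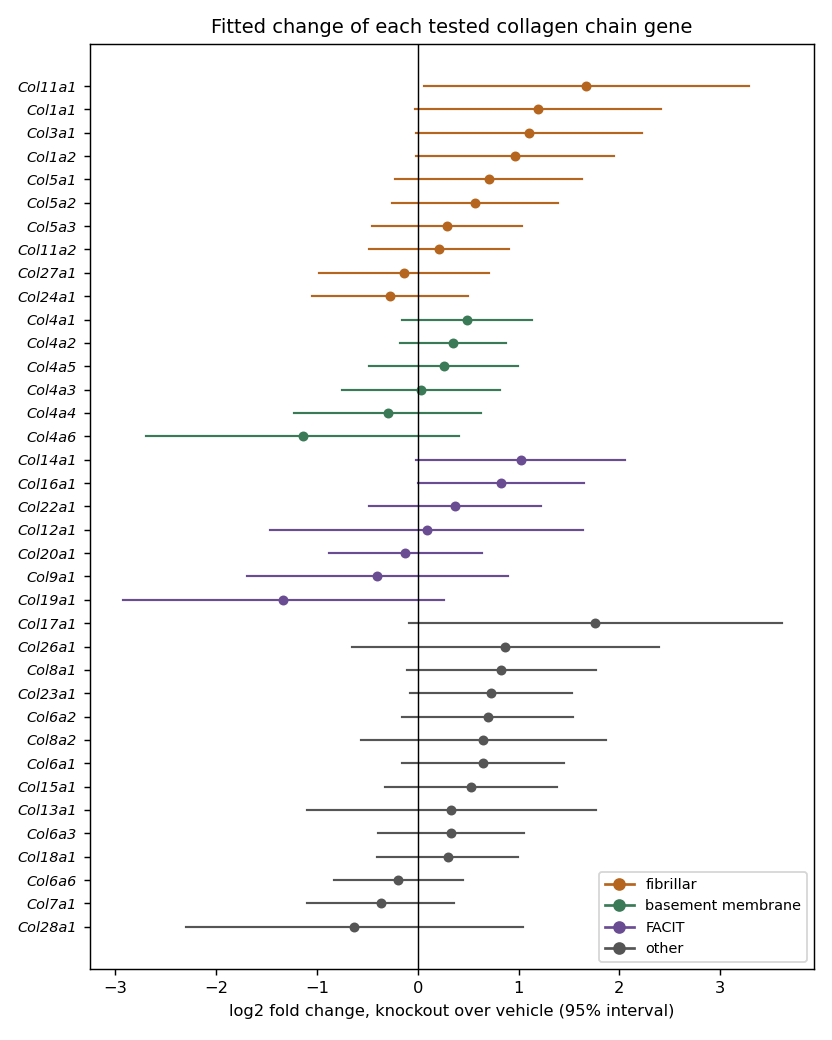
Fitted log2 fold change, knockout over vehicle, of the 37 collagen chain genes tested (points) with 95% intervals (lines), grouped and coloured by class. The interval of Col11a1 alone lies wholly above 0, and none passed the adjusted threshold of 0.05.

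By class, 8 of 10 tested fibrillar chains had a higher estimate (median 0.64), 4 of 6 basement membrane chains (median 0.14), 4 of 7 FACIT chains (median 0.09) and 11 of 14 others (median 0.59). The class medians came from members that share libraries and were not tested. Leaving out a single library turned the sign of 2 of them: the basement membrane median was -0.17 with knockout replicate 3 left out and -0.08 with vehicle replicate 3 left out, and the FACIT median was -0.19 and -0.25. Fibrillar medians stayed between 0.355 and 0.939 in the fits that left out a library.

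Among the fibrillar chains, Col3a1 (ENSMUSG00000026043, chromosome 1 from 45311538 to 45349706 in mm10) encodes the only chain of type III collagen, abundant in soft and extensible connective tissue. Its levels were 101, 389.6 and 276 CPM in the knockout group and 146, 144 and 67.2 in the vehicle group. Knockout replicates 2 and 3 lay above every vehicle library, while knockout replicate 1 lay below vehicle replicates 1 and 2. The log2 fold change was 1.10 (SE 0.49; edgeR adjusted p = 0.674).

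Col1a1 (ENSMUSG00000001506, chromosome 11 from 94936224 to 94953042) and Col1a2 (ENSMUSG00000029661, chromosome 6 from 4504814 to 4541543) encode both chains of type I collagen, the main protein of tendon and epimysium. Col1a1 stood at 24.6, 108 and 121 CPM in the knockout and 46.1, 40.6 and 24.2 in the vehicle libraries, and its estimate was 1.19 (SE 0.53). Col1a2 followed the same order, with 71.2, 223 and 247 CPM against 110.1, 103 and 64.2 and a log2 fold change of 0.97 (SE 0.43). For both, the groups overlapped because knockout replicate 1 sat near the lowest vehicle library. The edgeR adjusted p was 0.674 for each.

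Col5a1, Col5a2 and Col5a3 encode the type V chains that help start type I fibrils. Col5a1 was at 16.0, 39.1 and 38.4 CPM in the knockout and 25.2, 21.8 and 10.4 in the vehicle libraries, again with knockout replicates 2 and 3 highest and knockout replicate 1 among the lowest. Log2 fold changes were 0.70 (SE 0.41) for Col5a1, 0.57 (SE 0.36) for Col5a2 and 0.29 (SE 0.33) for Col5a3. Col11a1, whose product can stand in for type V chains, was the member of smallest p, and it was scarce. It had 24, 107 and 202 reads in the knockout libraries and 41, 46 and 14 in the vehicle libraries, or 0.698, 3.09 and 5.39 CPM against 1.27, 1.26 and 0.365. Its log2 fold change was 1.67 (SE 0.71, 95% interval 0.06 to 3.29, unadjusted p = 0.0438, edgeR adjusted p = 0.664).

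The remaining fibrillar chains did not follow this order. Col11a2 was highest in knockout replicate 1, at 10.6 CPM, and lowest in knockout replicate 2, at 4.37. It begins 1043 bases beyond the listed end of Rxrb, the gene of a partner of the vitamin D receptor that averaged 1213 reads. Col24a1 and Col27a1, chains of minor fibrillar collagens, were highest in vehicle replicate 2, with log2 fold changes of -0.28 (SE 0.34) and -0.14 (SE 0.38). These chains and the type V chains were chosen for description after their values were seen.

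**Figure D2:**
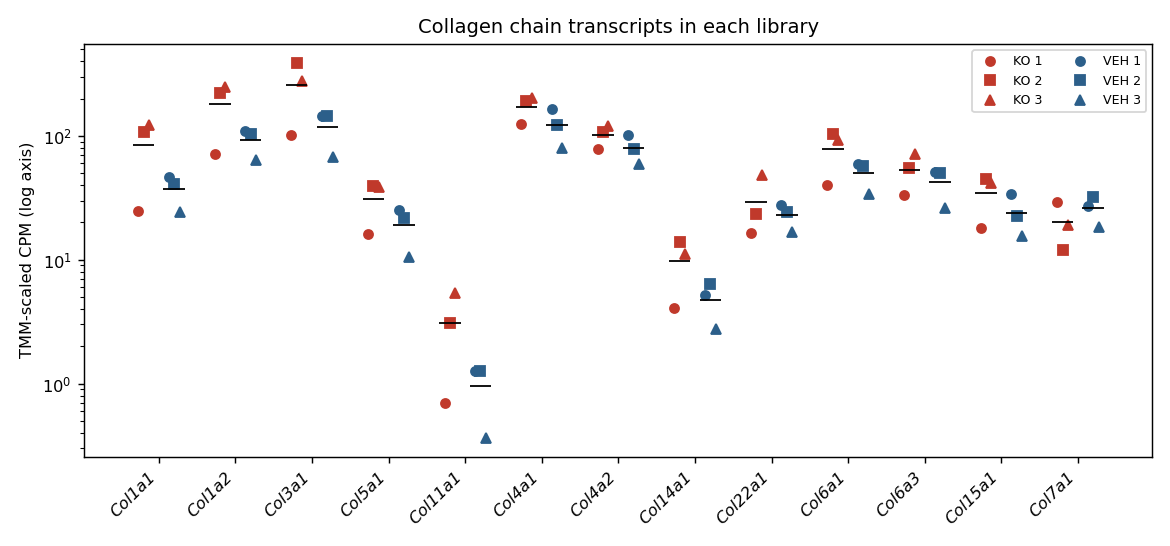
TMM-scaled CPM (log axis) of 13 collagen chain genes in each of the 6 libraries. Red marks are knockout (KO) and blue marks vehicle (VEH) replicates, and black bars are group means. Knockout replicates 2 and 3 lie above the vehicle libraries for Col1a1, Col1a2, Col3a1, Col5a1 and Col11a1, knockout replicate 1 does not, and Col7a1 is lowest in knockout replicate 2.

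The sequences upstream of chains that took this order, and of 1 that did not, are shown for comparison. RefSeq promoter windows (GRCm38.p6, 250 bases before to 50 after the start) matched 35 of the 44 members. Printed are the 250 bases before the start of Col3a1 (chr1:45311288-45311537, plus strand), Col5a1 (chr2:27886175-27886424, plus strand), Col11a1 (chr3:114030290-114030539, plus strand) and Col7a1 (chr9:108953336-108953585, plus strand), where none of these bases lies in an exon of GENCODE M21. Capitals mark matches to CCAAT or TATAAA or GGGCGG on either strand, 3 motifs that do not overlap here.
Col3a1: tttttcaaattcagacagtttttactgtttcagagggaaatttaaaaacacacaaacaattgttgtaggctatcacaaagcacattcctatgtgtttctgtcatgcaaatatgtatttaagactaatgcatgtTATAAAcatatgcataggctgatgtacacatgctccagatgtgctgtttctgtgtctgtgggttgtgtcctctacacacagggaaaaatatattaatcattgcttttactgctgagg
Col5a1: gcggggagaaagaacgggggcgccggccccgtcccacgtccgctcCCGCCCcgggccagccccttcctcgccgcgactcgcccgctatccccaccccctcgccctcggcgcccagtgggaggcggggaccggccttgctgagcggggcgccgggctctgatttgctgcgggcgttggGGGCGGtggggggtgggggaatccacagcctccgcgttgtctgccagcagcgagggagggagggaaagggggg
Col11a1: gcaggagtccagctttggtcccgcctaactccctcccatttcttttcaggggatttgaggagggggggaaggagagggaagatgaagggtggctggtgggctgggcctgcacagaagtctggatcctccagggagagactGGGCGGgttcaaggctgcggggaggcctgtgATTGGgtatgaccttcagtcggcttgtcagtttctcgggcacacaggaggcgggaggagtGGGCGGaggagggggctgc
Col7a1: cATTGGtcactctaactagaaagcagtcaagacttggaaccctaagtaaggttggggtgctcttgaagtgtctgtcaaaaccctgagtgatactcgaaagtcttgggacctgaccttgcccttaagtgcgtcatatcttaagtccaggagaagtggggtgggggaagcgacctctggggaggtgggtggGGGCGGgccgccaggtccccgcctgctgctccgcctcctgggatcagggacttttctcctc
Col3a1 held TATAAA 117 bases before its start and no other match. Col5a1 held only GGGCGG, at 205 and 73 bases. Col11a1 held GGGCGG at 110 and 19 bases and CCAAT, on the minus strand, at 79. Col7a1 held CCAAT at 249 bases and GGGCGG at 61. No motif of this set was common to Col3a1, Col5a1 and Col11a1. In the windows of 300 bases, on either strand, GGGCGG was found in 22 of the 35 members (62.9%) against 38.2% of 27025 genes, CCAAT in 37.1% against 41.1%, and TATAAA in 14.3% against 15.7%. A direct repeat of the hexamers AGGTCA or GGGTCA or AGTTCA or GGTTCA with 3 bases between them, the kind of element that the vitamin D receptor and its partner bind, was found in 0 of the 35 and in 0.0444% of all genes. A match is a string of letters and says nothing about binding.

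Of the basement membrane chains, Col4a1 (ENSMUSG00000031502, chromosome 8 from 11198423 to 11312826) and Col4a2 (ENSMUSG00000031503, chromosome 8 from 11312805 to 11449287) encode the chains of the common basement membrane mesh. They lie head to head and their listed spans overlap by 22 bases. Col4a1 was at 124, 189.6 and 203 CPM in the knockout libraries and 166, 122 and 79.1 in the vehicle libraries. Col4a2 was at 79.0, 108 and 119 CPM against 102, 77.8 and 59.6. Again knockout replicates 2 and 3 were the highest pair, but by a smaller margin than for the fibrillar chains, and knockout replicate 1 lay close to vehicle replicate 2. Log2 fold changes were 0.49 (SE 0.29) and 0.35 (SE 0.23), with edgeR adjusted p values of 0.734 and 0.760.

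The minor type IV chains, which make the meshes of kidney and other specialised membranes, were scarce. Col4a5 was at 3.72, 4.57 and 7.10 CPM in knockout and 5.20, 4.88 and 2.82 in vehicle libraries, with a fitted log2 difference of 0.26 (SE 0.33) with overlapping groups. Col4a3 and Col4a4 were at 0.03 (SE 0.35) and -0.30 (SE 0.41). Col4a6 had 4, 5 and 25 reads in knockout and 22, 32 and 20 in vehicle libraries, with a fitted log2 difference of -1.14 (SE 0.69; edgeR adjusted p = 0.741) in which knockout replicate 3 lay within the vehicle range.

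FACIT chains did not share 1 order over the libraries. Col22a1, a collagen of the junction between muscle and tendon, was the most abundant of them per length at a mean of 2.89 FPKM. It was at 16.6, 23.5 and 48.4 CPM in knockout and 27.6, 24.1 and 16.8 in vehicle libraries, with knockout replicate 3 alone above the others. Its log2 fold change of 0.37 (SE 0.37; edgeR adjusted p = 0.848) became -0.19 without knockout replicate 3. Col12a1, found on fibrils of tendon and fascia, was also highest in knockout replicate 3, at 9.66 CPM, against 1.48 to 6.08 in the other 5 libraries.

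Col14a1, which takes part in fibril assembly, was highest in knockout replicates 2 and 3, as the type I chains were. It was at 4.04, 13.9 and 11.1 CPM in the knockout and 5.20, 6.35 and 2.74 in the vehicle libraries, with an estimate of 1.02 (SE 0.46; edgeR adjusted p = 0.674). Col16a1 had a log2 fold change of 0.82 (SE 0.37; edgeR adjusted p = 0.672), with 3.20, 6.80 and 5.45 CPM against 3.84, 3.12 and 1.77. Col20a1 was at 4.71, 5.26 and 5.58 CPM in knockout and 8.73, 4.93 and 3.31 in vehicle libraries, so that the vehicle mice spanned the knockout values, and its log2 fold change was -0.12 (SE 0.34; edgeR adjusted p = 0.956). Its first 741 bases overlap the listed span of 9230112E08Rik, which averaged 274.5 reads, so part of its reads may belong there. Col9a1, a cartilage chain, took another order, with 5.38 CPM in knockout replicate 1 and 0.752 in knockout replicate 2. Col19a1 was highest in vehicle replicate 2 with 55 reads, against 3 to 18 elsewhere.

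Type VI collagen was the main member of the last class. Col6a1 (ENSMUSG00000001119, chromosome 10 from 76708792 to 76726168), Col6a2 (ENSMUSG00000020241, chromosome 10 from 76595762 to 76623630) and Col6a3 (ENSMUSG00000048126, chromosome 1 from 90765923 to 90843971) encode the chains of its common heterotrimer, whose loss causes muscle disease. Col6a1 was at 39.8, 104 and 91.9 CPM in knockout and 59.4, 57.1 and 34.1 in vehicle libraries. Col6a2 was at 32.9, 90.6 and 75.6 CPM against 52.2, 44.0 and 26.9. Col6a3 was at 33.3, 55.4 and 70.9 CPM against 50.7, 50.3 and 26.3. All 3 chains were highest in knockout replicates 2 and 3 and lowest in vehicle replicate 3. Their log2 fold changes were 0.65 (SE 0.35), 0.69 (SE 0.37) and 0.33 (SE 0.32), and the edgeR adjusted p values were 0.717, 0.717 and 0.842. Col6a6, a further type VI chain, was at -0.19 (SE 0.28).

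Col15a1 and Col18a1 encode the multiplexins of the basement membrane zone, and the latter yields endostatin. Col15a1 was at 18.0, 44.5 and 41.3 CPM in knockout and 33.9, 22.5 and 15.6 in vehicle libraries, with a fitted log2 difference of 0.53 (SE 0.37; edgeR adjusted p = 0.779). Vehicle replicate 1 came next after knockout replicates 2 and 3. Col18a1 was at 0.30 (SE 0.31), and 8825 bases of its span are shared with the listed span of Slc19a1. Col8a1, of the network under vascular endothelium, was at 0.83 (SE 0.42), and Col23a1, a membrane-spanning chain, at 0.73 (SE 0.36).

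Col7a1, the anchoring fibril chain of skin, went against the shared order among well expressed members. It was at 29.4, 12.0 and 19.0 CPM in knockout and 27.1, 32.3 and 18.4 in vehicle libraries, with a fitted log2 difference of -0.37 (SE 0.32; edgeR adjusted p = 0.820). Col17a1, a hemidesmosome chain of epithelia, had the largest estimate of the 37 at 1.76 (SE 0.82), and it rested on 1 library. It had 101 reads in knockout replicate 1 against 6 to 29 in the other 5 libraries, and without knockout replicate 1 the estimate was 0.47. Col13a1, a membrane-spanning collagen of the neuromuscular junction, had 28, 12 and 38 reads in knockout and 21, 33 and 7 in vehicle libraries, with overlapping groups.

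Across the family, the groups overlapped in all 37 tested members, and the same libraries often stood highest or lowest. Knockout replicates 2 and 3 were the highest pair in 19 of the 37 tested members (51.4%), as they were in 13.4% of all genes tested. Knockout replicate 1 and vehicle replicate 3 were the lowest pair, also in 19 members, against 8.86% of all genes. By class, knockout replicates 2 and 3 were the highest pair in 7 of 10 fibrillar, 2 of 6 basement membrane, 2 of 7 FACIT and 8 of 14 other chains. Knockout replicate 1 lay below the vehicle mean in 27 of the 37 members, although its group had the higher estimate in as many. The share of all genes in which it lay below that mean was not computed, so this count has no background. These counts were made after the pattern was seen, over genes that share libraries, and they carry no test.

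**Figure D3:**
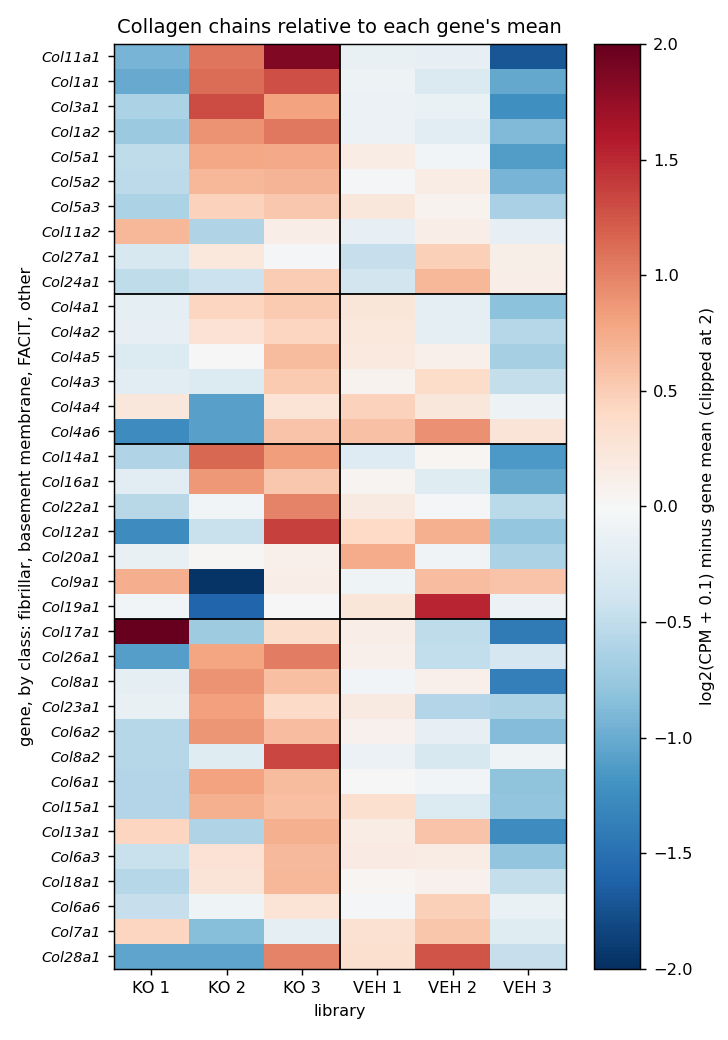
Level of each tested collagen chain gene in each library as log2(CPM + 0.1) minus the gene's mean over the 6 libraries (colours, clipped at 2), with genes grouped by class. Knockout replicates 2 and 3 are the highest pair in 19 of 37 genes, against 13.4% of all genes tested. Vehicle replicate 3 is the lowest library in 22, against 22.8% of all genes tested.

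Within-group spread was correspondingly wide. The median pooled standard deviation of log2 CPM within groups was 0.63 over the 37 members and 0.31 over all 15583 genes. It was larger within the knockout than within the vehicle group in 29 of 37 members (78.4%) and in 58.8% of all genes. The fibrillar chains summed to 264, 847 and 783 CPM in the knockout group and to 392.4, 385 and 210.3 in the vehicle group. Knockout replicate 1 thus had less than a vehicle library had on average. The knockout mean over the vehicle mean was 1.92 for the fibrillar sum, 1.34 for the basement membrane sum, 1.26 for the FACIT sum and 1.37 for the other chains.

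Single libraries decided how many members came near the threshold. With all 6 libraries 1 member was at an unadjusted p below 0.05. Without knockout replicate 1 there were 16 of 40 tested (40%), 15 of them higher in knockout, where 12.1% of all genes reached that level. The smallest adjusted p was then 0.0733, for Col1a1, and 0 members were below 0.05. Without vehicle replicate 1 there were 6 of 39, against 9.31% of all genes. The count was 0 of 39 when vehicle replicate 3 was left out (3.69% of all genes) and 1 for knockout replicate 2 (4.63%). It was 2 for knockout replicate 3 (6%) and also 2 for vehicle replicate 2 (4.67%). DESeq2 with all libraries gave 8 members, among them Col1a1, Col3a1, Col11a1 and Col1a2, where 8.43% of all genes reached that level, and its smallest adjusted p was 0.295. Nothing in the labels gives a ground for leaving out knockout replicate 1.

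**Figure D4:**
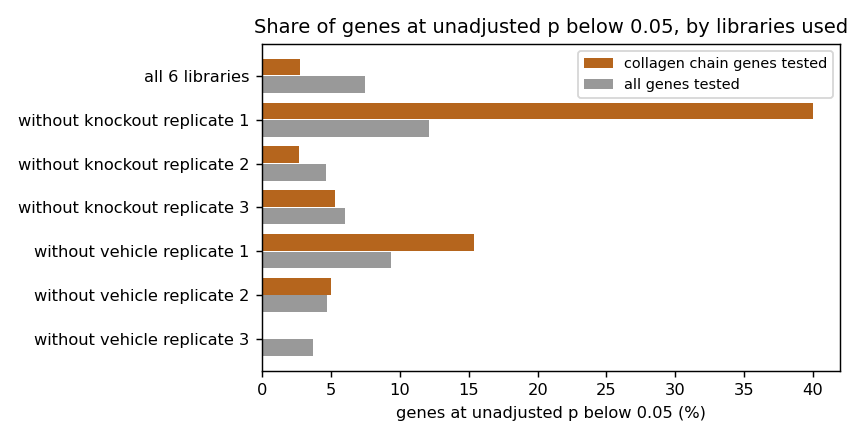
Percent of tested genes at an unadjusted p below 0.05 in edgeR with all 6 libraries and with each library left out, for collagen chain genes (brown) and all genes (grey). The collagen share is 2.7% with all libraries, 40% when knockout replicate 1 is left out and 0% when vehicle replicate 3 is.

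The ratios between partner chains varied less over the 6 libraries than their levels did. The ratio of Col1a1 to Col1a2 reads was 0.346, 0.483 and 0.492 in the knockout and 0.419, 0.395 and 0.377 in the vehicle libraries. Col4a1 over Col4a2 ran from 1.33 to 1.76 over the 6 libraries, and Col6a1 over Col6a2 from 1.14 to 1.30. Col6a3 over Col6a1 was 0.531 in knockout replicate 2 and 0.771 to 0.881 in the others. Of 5 ratios compared, including Col3a1 over Col1a2, 0 separated the groups: the smallest exact two-sided permutation p was 0.3 over 20 splits, with an adjusted value of 0.5, in a design that cannot go below 0.1. A ratio within a library does not depend on its scaling.

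Companion genes of collagen synthesis were described from lists chosen with the earlier results of these data known. Modification of the chains begins in the endoplasmic reticulum. Of 14 tested hydroxylase, partner and glycosyltransferase genes, 9 had a higher estimate (median 0.16). An unadjusted p below 0.05 was reached by 2 of the 14, where 7.44% of all genes did, and by 0 of 8 folding and export genes. P4hb, a subunit of the main prolyl hydroxylase and an abundant disulfide isomerase, was at -0.004 (SE 0.16), while the prolyl hydroxylase P3h3 was at 0.70 (SE 0.28), the galactosyltransferase Colgalt2 at 0.54 (SE 0.24) and the lysyl hydroxylase Plod2 at 0.50 (SE 0.25). Folding and export genes had 6 of 8 estimates higher (median 0.21), with the collagen chaperone Serpinh1 at 0.26 (SE 0.22), Fkbp10 at 0.49 (SE 0.37) and Sparc, a collagen-binding secreted protein, at 0.31 (SE 0.28). The smallest adjusted p of both lists was 0.6455, so 0 passed.

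Outside the cell, genes of propeptide processing had 6 of 7 estimates higher (median 0.54). Those of smallest p were Adamts14 at 1.09 (SE 0.43), Pcolce2 at 0.70 (SE 0.32) and Adamts2 at 0.55 (SE 0.27). Knockout replicates 2 and 3 were the highest pair in 6 of the 7 propeptide genes, and in 13.4% of all genes tested. Other companion lists shared this order in part. The pair was highest in 7 of 14 modification, 5 of 8 folding and export, 3 of 5 cross-linking and 5 of 11 breakdown genes. It was highest in 3 of 5 inhibitor, 3 of 6 receptor, 6 of 10 basement membrane partner and 5 of 13 transforming growth factor beta genes. These counts carry no test. Cross-linking oxidases had 4 of 5 higher (median 0.36), with Loxl1 at 0.70 (SE 0.45). Genes of collagen breakdown had 9 of 11 higher (median 0.41). Among them were the fibroblast protease Fap at 0.67 (SE 0.29), Mmp19 at 0.69 (SE 0.39) and Ctsk at 0.58 (SE 0.33). Their inhibitors had 4 of 5 higher (median 0.59), with Timp4 at 0.61 (SE 0.23) and Timp1 at 1.69 (SE 0.78). At an unadjusted p below 0.05 were 1 of 7 propeptide, 0 of 5 cross-linking, 1 of 11 breakdown and 1 of 5 inhibitor genes. Each of the 3 was higher in knockout, where 7.44% of all genes reached that level and 4.02% were higher. The smallest adjusted p over these 4 lists was 0.643, for Timp4, so 0 passed.

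Collagen receptors had 6 of 6 tested estimates higher (median 0.24). Ddr1, a receptor kinase that binds collagen, was at 11.1, 9.31 and 11.1 CPM in knockout and 7.12, 7.94 and 6.21 in vehicle libraries, without overlap, and its log2 fold change was 0.57 (SE 0.20; edgeR adjusted p = 0.629). The partners of type IV collagen in the basement membrane had 9 of 10 estimates higher (median 0.30), with Nid1 at 0.61 (SE 0.32), Hspg2 at 0.51 (SE 0.28) and Lama4 at 0.38 (SE 0.23). Of 13 genes tied to transforming growth factor beta, a main inducer of collagen synthesis, 9 had a higher estimate (median 0.09). The ligand gene Tgfb2 was lower in all 3 knockout than in all 3 vehicle libraries at -0.73 (SE 0.19). The receptor gene Tgfbr2 was higher in all 3 at 0.56 (SE 0.16), and Ltbp4 was at 0.70 (SE 0.27). Groups did not overlap in 12.3% of all genes tested, 5.83% higher and 6.48% lower in knockout. Of the tested companions in the earlier lists, Colgalt2, Mmp11 and Timp4 were higher without overlap, and P3h1 and Tll1 were lower without overlap. At an unadjusted p below 0.05 were 1 of 6 receptor genes and 0 of 10 basement membrane partners. So were 4 of the 13 genes tied to transforming growth factor beta, 3 of these higher and 1 lower. Of all genes 7.44% reached that level, 4.02% higher and 3.42% lower. The smallest adjusted p of these 3 lists was 0.526, and 0 genes passed.

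Fibroblast and macrophage markers, like the fibrillar chains, were highest in knockout replicates 2 and 3. The summed level of 8 fibroblast markers was 1151, 2549.9 and 1820.4 CPM in the knockout group and 1555, 1599 and 1221 in the vehicle group. That pair was highest in 7 of the 8 genes taken singly, and in 13.4% of all genes tested. The sum of 6 macrophage markers was 37.0, 104 and 105 CPM against 51.7, 40.7 and 28.3, and all 6 had that pair highest. Both counts were made after the pattern was seen and carry no test. Fibrillar chains over fibroblast markers, a ratio of the sums, was 0.229, 0.332 and 0.430 in knockout and 0.252, 0.241 and 0.172 in vehicle libraries. Knockout replicates 2 and 3 were highest in this ratio. Gsn was the largest part of the marker sum, at 698, 1536 and 1093 CPM in knockout and 982, 986 and 695 in vehicle libraries. The ratio therefore rests mainly on that gene, and ratios to the other markers singly were not computed.

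Other markers took several orders. Slow-fibre markers summed to 4306, 24314 and 7237 CPM in the knockout and 7197, 937 and 748 in the vehicle libraries. Knockout replicate 2 was far above the rest, and knockout replicate 3 came next, just above vehicle replicate 1. That pair was highest in 3 of the 6 slow-fibre genes taken singly, and in 13.4% of all genes tested. General muscle fibre markers were lowest in knockout replicate 2, at 96718 CPM, against 142370 to 197840 in the other 5. Tendon markers summed to 123, 162 and 260.4 CPM in knockout and 227, 182 and 198 in vehicle libraries. Thbs4 and Fmod were the largest part of that sum and had estimates lower in knockout, while 5 of the 7 tendon genes had higher ones. Endothelial markers summed to 206, 204 and 228 CPM against 231, 202 and 169.5, and pericyte and smooth muscle markers to 850.3, 735 and 928 against 828, 953 and 804. Knockout replicates 2 and 3 were the highest pair in 4 of 7 tendon, 0 of 6 endothelial and 2 of 6 pericyte and smooth muscle genes. These counts carry no test. Adipocyte markers were highest in knockout replicates 1 and 2, at 185 and 199.7 CPM, against 22.1 to 65.2 elsewhere. Schwann cell markers summed to 68.0 to 109 CPM in knockout and 92.2 to 173 in vehicle libraries, and neuromuscular junction markers to 128 to 149 against 137 to 164. Of the cartilage and bone markers Sox9 alone passed the filter, and Acan, Matn1, Matn3, Bglap and Ibsp were at or near 0. An unadjusted p below 0.05, reached by 7.44% of all genes, was found higher in knockout for 5 of 6 macrophage, 5 of 5 adipocyte, 2 of 8 fibroblast and 1 of 8 muscle fibre markers. It was found lower for 2 of 6 neuromuscular junction, 1 of 6 endothelial and 1 of 6 pericyte and smooth muscle markers and for Sox9, and for 0 of the slow-fibre, tendon and Schwann cell markers. Of all markers 0 passed the adjusted threshold in edgeR. The part of these cell types, and of fibre type, in the collagen values was not tested.

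**Figure D5:**
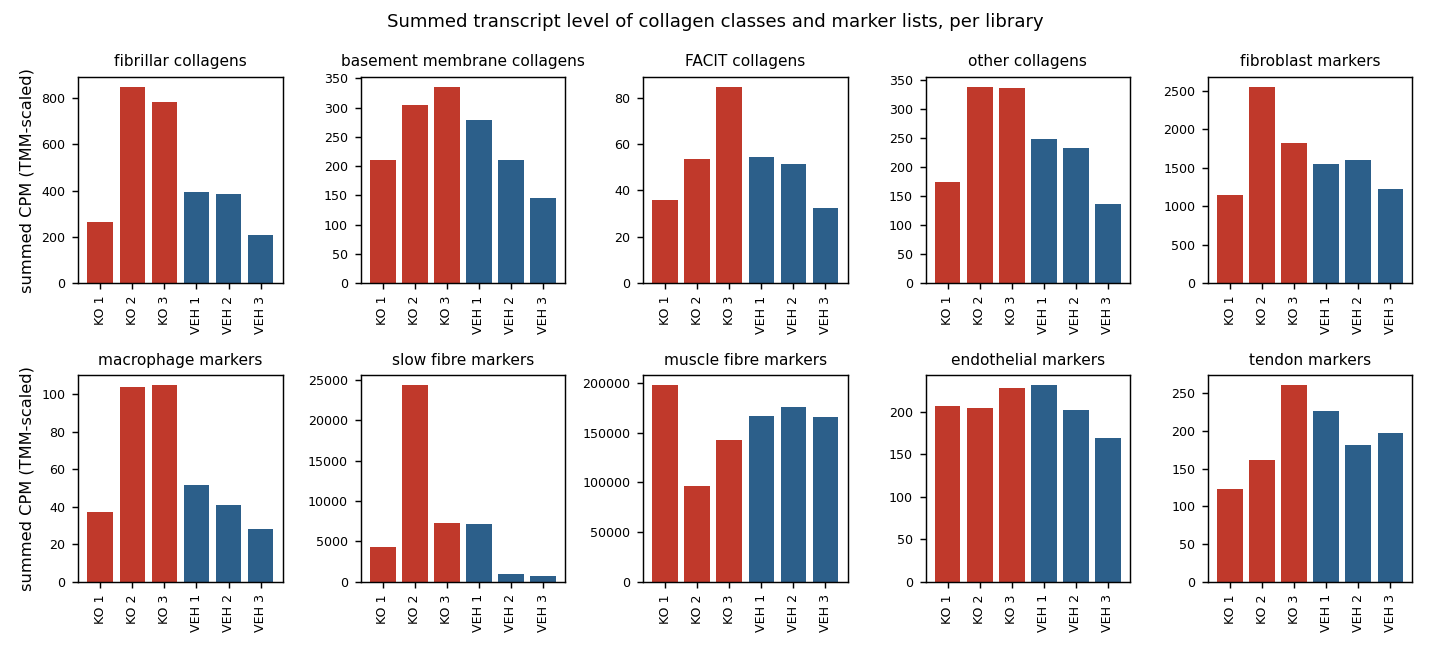
Summed TMM-scaled CPM of the 4 collagen classes and of 6 marker lists in each library (bars from 0; red knockout, blue vehicle). Fibrillar, basement membrane and other collagen sums are highest in knockout replicates 2 and 3, as are fibroblast, macrophage and slow-fibre sums. FACIT, endothelial and tendon sums are not. Muscle fibre markers are lowest in knockout replicate 2.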

How the data were processed

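Polyadenylated RNA of gastrocnemius was sequenced in 3 knockout and 3 vehicle libraries, prepared, per the labels' protocols, with the TruSeq Stranded mRNA kit. The authors deposited raw read counts per gene and FPKM. The tools were STAR 2.6.1c, Subread 1.5.1 with featureCounts, and bcl2fastq, with mm10 as the build, per the submitters' processing notes. Annotation release and strand setting: not given in the sources used here. Overlapping and antisense genes are therefore uncertain. The deposited FPKM values equalled count over listed length plus 1 base and library total, to within 5e-07. All value columns belonged to the 6 libraries, which held 30486874 to 39909535 reads.

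Counts were fitted in R 4.3.3 with edgeR 4.0.16: filterByExpr (minimum count 10, minimum total 15), TMM factors, robust quasi-likelihood test, two-sided, Benjamini-Hochberg over all 15583 genes kept, threshold 0.05. The groups came from the recorded phenotype, and replicate numbers are names only. Intervals are 95%, and nothing says that the spread between libraries is free of technical variation. The procedure was tested on simulated counts. Alternatives were DESeq2 1.42.0, limma 3.58.1 (voom; log2(FPKM + 0.1) and log2(FPKM + 1)), other scalings and filters, and leaving out each library. List genes under older symbols were matched by gene ID for 7 genes.

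The members, gene lists and tests were chosen with earlier results of these data known. Values in each library are given for the 3 members of highest FPKM per class, their partner chains and members with an unadjusted p below 0.05 or no overlap. For each list up to 3 genes of smallest p are named. Other genes named with values were chosen after these were seen.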

Additional observations from a re-analysis of the deposited data

How the results depend on the processing

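The number of collagen chain genes that passed the adjusted threshold was 0 in every setting run. Over all genes the count was 0 with edgeR, 4 with DESeq2 size factors, 109 with the DESeq2 Wald test, 29 without a low-count filter, 7 at an adjusted p below 0.1, and 0 to 24 when a library was left out, the highest without knockout replicate 1. Members at an unadjusted p below 0.05 numbered 1 in edgeR, 2 with DESeq2 size factors and 2 with upper-quartile factors, 8 with DESeq2, 3 without a filter, 0 with limma-voom, 0 with log2(FPKM + 0.1) and 0 with log2(FPKM + 1). They ranged from 0 without vehicle replicate 3 to 16 without knockout replicate 1.

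The sign of the log2 fold change held for 23 of 37 members in the settings in which each was tested, and 14 turned when a library was left out. Of the 37, 7 were not tested at a minimum of 1 CPM in 3 libraries, 5 of the 23 among them. Over those fits the basement membrane median ran from -0.172 to 0.296 and the FACIT median from -0.246 to 0.506, and the FACIT summed level, knockout over vehicle, was 0.974 to 1.503. Single genes ran from -0.053 to 0.44 for Col4a5, -0.291 to 0.233 for Col4a3, -0.524 to 0.044 for Col4a4, -0.19 to 0.653 for Col22a1, -0.399 to 0.329 for Col20a1 and -0.991 to 0.063 for Col9a1. They ran from -1.061 to 0.506 for Col12a1, -0.692 to 0.013 for Col24a1, -0.137 to 0.484 for Col11a2, -0.365 to 0.108 for Col27a1 and -0.011 to 0.566 for Col18a1. For Col6a6 they ran from -0.403 to 0.015, for Col8a2 from -0.258 to 0.986 and for Col13a1 from -0.1 to 0.809. Col20a1 was at 0.011 with limma-voom, 0.066 with log2(FPKM + 0.1) and 0.02 with log2(FPKM + 1), and Col12a1 at -0.189 with limma-voom and -0.029 with log2(FPKM + 0.1). The cause was not tested.

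No paired analysis was possible because the replicate numbers only follow the order of deposit and the labels tie no knockout mouse to a vehicle mouse. Members with few reads are limited by depth: 7 did not pass the filter.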
